A study of Danio rerio with 16 samples.

Results

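Livers of fasted zebrafish kept in fluoxetine (FLX) were compared with livers of fed zebrafish kept in FLX, by their microRNA (miRNA) content. The comparison used 8 of the 16 arrays of the study, 4 of the Fasted/FLX group and 4 of the Fed/FLX group, which were picked by the group named in each sample's label. Fasted/FLX fish were adult females that received no food for 7 days in water with 540 ng/L FLX, and Fed/FLX fish were adult females that were fed for the same 7 days in water with the same dose. The other 8 arrays, of Fasted and Fed females kept for 7 days without FLX, served to estimate the spread between arrays and to compare the fasting difference with and without FLX. No strain was given. Each array held RNA of 2 pooled livers. Each group was kept in 1 tank, so that a difference between groups and a difference between tanks cannot be told apart, and the spread between arrays is that between pools of livers from 1 tank.

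MicroRNAs are short RNAs that pair with messenger RNAs and reduce their translation or stability. Several of them are closely tied to liver and to metabolism in mammals: miR-122 makes up much of the miRNA of hepatocytes and takes part in cholesterol and lipid metabolism, miR-29 restrains collagen genes and acts on insulin signalling, and miR-181 is best known from lymphocyte development and has been tied to lipid metabolism in liver. FLX is a selective serotonin reuptake inhibitor that reaches rivers through wastewater. During fasting the liver turns from storing fuel to releasing it.

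The array was a custom 1-colour array with 60 spots for each of 248 zebrafish miRNAs. RMA values, which are background-corrected, quantile-normalized log2 spot signals summarised for each miRNA, were used throughout, and differences are Fasted/FLX minus Fed/FLX on the log2 scale. Detection of a miRNA by an array required that 50% or more of its spots, outliers left aside, stood well above background. Detected miRNAs numbered 91, 83, 84 and 92 on the Fasted/FLX arrays, against 71, 87, 84 and 65 on the Fed/FLX arrays. The groups overlapped, and the difference of 10.75 miRNAs per array did not pass the exact permutation test (two-sided p = 0.171, where the smallest possible p for 4 against 4 arrays was 0.0286). All 8 arrays detected 54 of the miRNAs, and 142 were below this limit on every one of them. A set of 19 miRNAs was detected on all 4 Fasted/FLX arrays but not on all 4 Fed/FLX arrays, and miR-143 alone showed the opposite. Some of these lay close to the limit. The share of miR-143 spots well above background was 49.1 to 50% on Fasted/FLX arrays and 50 to 50.9% on Fed/FLX arrays. let-7h, among the 19, had 50% on every Fasted/FLX array and 49.2% on Fed/FLX replicate 4. Fed/FLX replicates 1 and 4 had the fewest detected miRNAs of the 8 arrays.

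Fed/FLX replicate 1 stood apart from the other arrays. The hepatocyte miRNA miR-122 had RMA values of 12.32, 12.33, 12.33 and 12.33 on the Fasted/FLX arrays, against 11.54, 12.32, 12.32 and 12.33 on the Fed/FLX arrays. It was the brightest miRNA on all of these arrays except Fed/FLX replicate 1, where miR-739 was brighter, and quantile normalization gives the brightest miRNA nearly the same value on every array. miR-739 had RMA values of 11.69, 11.66, 11.67 and 11.68 on the Fasted/FLX arrays, against 12.32, 11.68, 11.67 and 11.67 on the Fed/FLX arrays. Among the 54 miRNAs detected on all 8 arrays, Fed/FLX replicate 1 was the array farthest from the Fed/FLX mean for 28. The median SD of these miRNAs was 0.14 in the Fasted/FLX group and 0.25 in the Fed/FLX group. The groups are those of the scanner files. In the authors' table of processed values all 8 FLX scans stood under the heading of another sample, as found by matching values within 0.001, and which assignment is right could not be settled from the files. Every result below rests on the assignment in the scanner files.

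**Figure D1:**
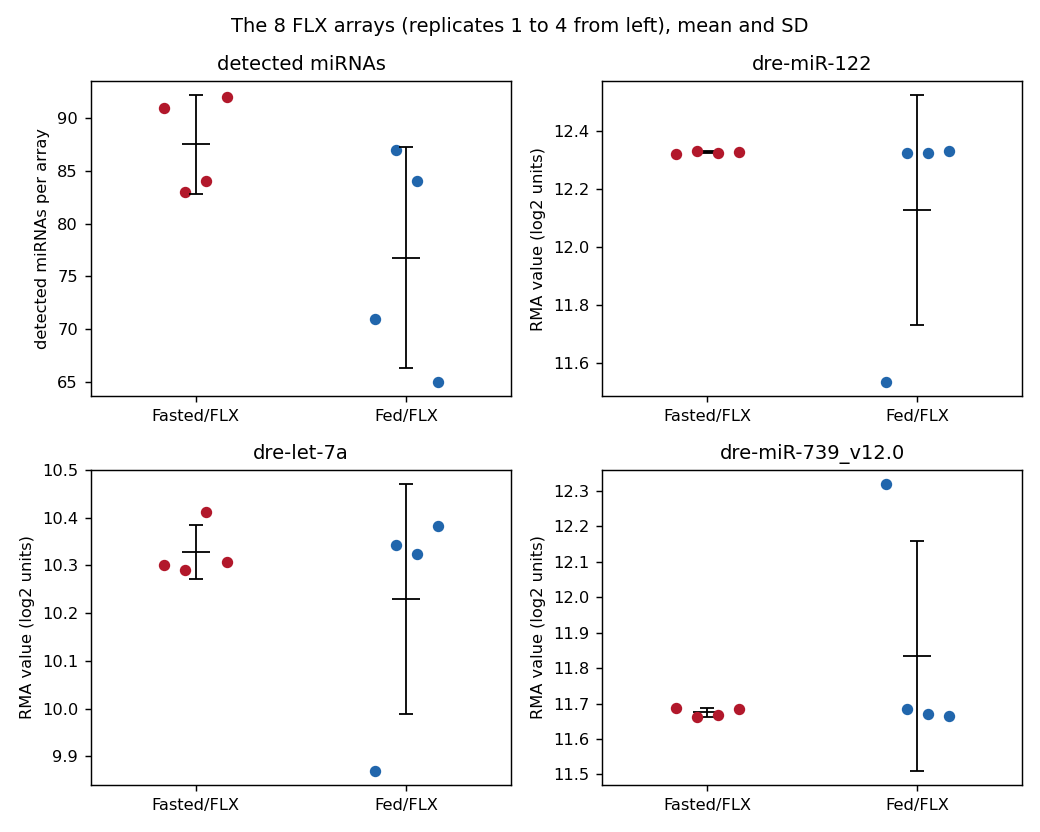
Detected miRNAs per array (upper left, a count) and RMA values in log2 units of miR-122, let-7a and miR-739 on the 4 Fasted/FLX arrays and the 4 Fed/FLX arrays, with points for replicates 1 to 4 from left and bars for the mean and SD; the vertical axes do not start at 0. Fed/FLX replicate 1 lies apart from the other Fed/FLX arrays for the 3 miRNAs, at 11.54 for miR-122, 9.87 for let-7a and 12.32 for miR-739.

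Fasting under FLX went with lower miR-181a-5p and with higher miR-29a and miR-29b, and a 4th call, miR-181c, had a lower signal that lay at background on all 8 arrays. These 4 of 248 miRNAs (1.61%) passed an adjusted p of 0.05 in limma's moderated test with Benjamini-Hochberg adjustment, 2 of them higher (0.806%) and 2 lower (0.806%) in Fasted/FLX livers. No miRNA (0%) also reached a 2-fold difference. This split depended on the scaling. With scaling to the 75th percentile of miRNAs detected on all 16 arrays, the same 4 were called, 2 higher and 2 lower. With the percentile of all miRNA spots, 2 were called higher and 1 lower, without miR-181a-5p. On the scanner software's total gene signal, miR-181a-5p alone was called. Without quantile normalization the arrays were not scaled to each other, and 34 miRNAs were called, all 34 higher and 0 lower in Fasted/FLX livers. Of these, 8 reached 2-fold or more, miR-29a and miR-29b among them, and neither miR-181 miRNA was called. The median difference over all miRNAs was 0.20 there. At an unadjusted p of 0.05, 29 miRNAs (11.7%) passed, of which 13 were higher (5.24%) and 16 lower (6.45%), where 12.4 would pass by chance, and 10 of the 29 were detected on no FLX array. With quantile normalization the median difference over all 248 miRNAs was -0.01. The values of the 2 groups did not overlap for 13 miRNAs (5.24%), 6 higher (2.42%) and 7 lower (2.82%) in Fasted/FLX livers. By chance alone, 4 against 4 arrays do not overlap with a probability of 0.0286. In RNA of whole livers, fewer cells of a type and less RNA per cell cannot be told apart.

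**Figure D2:**
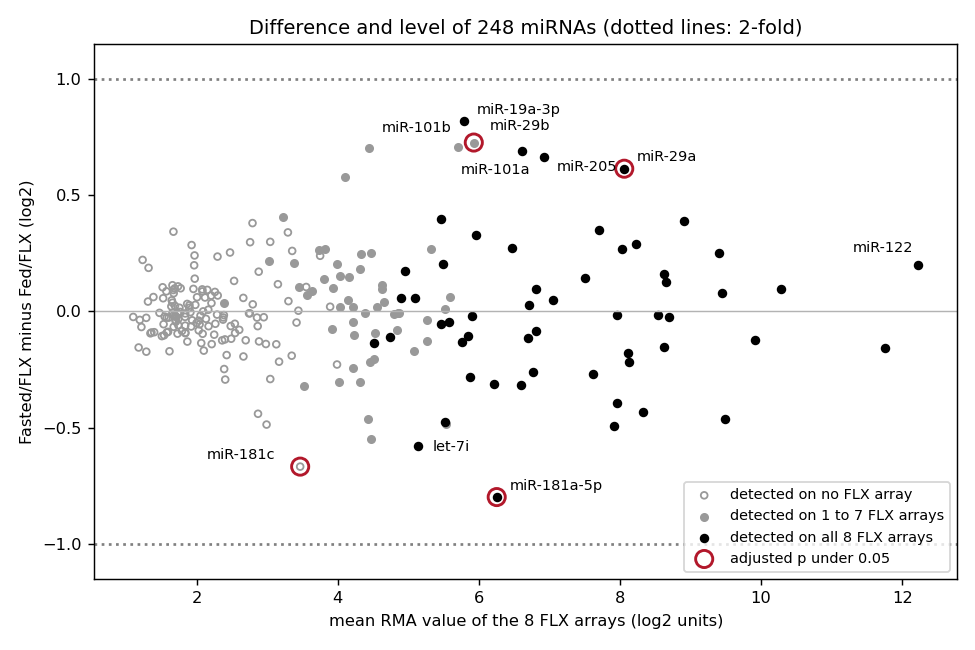
Difference between Fasted/FLX and Fed/FLX (vertical axis, log2) against the mean RMA value of the 8 FLX arrays (horizontal axis, log2 units) for 248 miRNAs, 1 point each, marked by the number of arrays that detected the miRNA. The 4 rings are miRNAs with an adjusted p under 0.05, and no point lies beyond the dotted lines at 2-fold.

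miR-181a-5p, the main arm of a miRNA known from mammals for its part in T cell signalling, had RMA values of 5.74, 5.96, 6.08 and 5.63 on the Fasted/FLX arrays, against 6.95, 6.44, 6.70 and 6.52 on the Fed/FLX arrays. Every Fasted/FLX array lay below every Fed/FLX array, and the miRNA was detected on all 8. The mean was 5.85 ± 0.20 in Fasted/FLX livers and 6.65 ± 0.23 in Fed/FLX livers (SD, n = 4 each), so that miR-181a-5p fell by 0.80 (standard error 0.15; 95% interval -1.12 to -0.47; limma adjusted p = 0.0142), a 1.74-fold lower level. The array measured it with 2 different probes, which gave differences of -0.75 and -0.84, each with no overlap between the groups. The RMA value summarises these same probes, so this is not separate support. The probes of a miRNA differed in 1 direction for 29 of 31 named miRNAs.

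miR-181c had RMA values of 3.18, 3.15, 3.22 and 2.98 on the Fasted/FLX arrays, against 3.90, 3.68, 3.71 and 3.91 on the Fed/FLX arrays. All Fasted/FLX values were below all Fed/FLX values, and the limma adjusted p was 0.00176, the smallest of the 248. The level of miR-181c was not well above background on any of the 8 arrays, so neither a fold nor a log2 difference is given as its size: none of its spots stood well above background on the Fasted/FLX arrays, and at most 5.26% of them did on a Fed/FLX array. The fitted value depended on how low signals were treated, between -0.13 with a background offset of 50 and -2.21 on the scanner software's total gene signal, where it was not called (adjusted p = 0.374). The other arm of miR-181a, miR-181a-3p, was detected on no FLX array and was not called.

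In RefSeq's annotation of the zebrafish genome (assembly GRCz12tu) the gene mir181c lies next to mir181a-3, 1 of 5 annotated mir181a genes, and each of these 5 genes lies next to another gene of the miR-181 family. The array cannot tell from which of the 5 genes miR-181a-5p came, and mature miRNAs of a family differ by few bases, so some of the signal of 1 member can come from another. That share was not tested.

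miR-29a, which in mammals restrains extracellular matrix genes, had RMA values of 8.57, 8.34, 8.29 and 8.28 on the Fasted/FLX arrays, against 7.42, 8.11, 7.85 and 7.65 on the Fed/FLX arrays. The lowest Fasted/FLX value exceeded the highest Fed/FLX value, and miR-29a was detected on all 8 arrays. It averaged 8.37 ± 0.14 in Fasted/FLX livers and 7.75 ± 0.29 in Fed/FLX livers (SD, n = 4 each) and rose by 0.61 (standard error 0.13; 95% interval 0.34 to 0.89; limma adjusted p = 0.0175), which is 1.53-fold.

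miR-29b, of the same family, had RMA values of 6.29, 6.34, 6.30 and 6.23 on the Fasted/FLX arrays, against 5.24, 6.09, 5.47 and 5.46 on the Fed/FLX arrays. The Fasted/FLX values lay close together and above all Fed/FLX values, of which replicate 2 came nearest. The mean was 6.29 ± 0.05 in Fasted/FLX livers and 5.57 ± 0.36 in Fed/FLX livers (SD, n = 4 each), a difference of 0.73 (standard error 0.15; limma adjusted p = 0.0175) or 1.65-fold. It was detected on all 4 Fasted/FLX arrays and on 1 Fed/FLX array. Its share of spots well above background was 48.3, 100, 49.2 and 49.2% on the Fed/FLX arrays, the lower values just under the detection limit. Of its 2 probes the dimmer averaged 4.88 in Fasted/FLX livers and 4.17 in Fed/FLX livers and the brighter 7.68 and 6.92, with differences of 0.71 and 0.75. For both members of the miR-29 family the 2 probes each separated the groups, which is not separate support, since the RMA values summarise these probes. RefSeq places a mir29b gene directly beside mir29a-1.

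**Figure D3:**
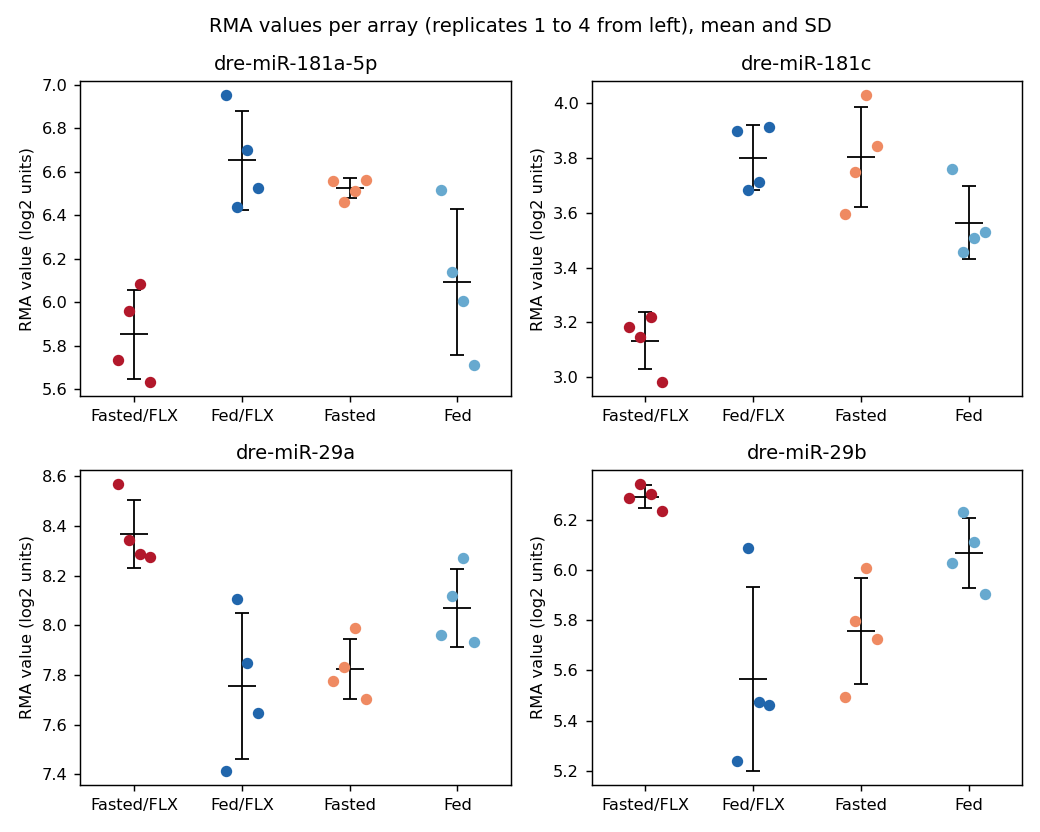
RMA values in log2 units (vertical axes, which do not start at 0) of miR-181a-5p, miR-181c, miR-29a and miR-29b on the 16 arrays by group, with points for replicates 1 to 4 from left and bars for the mean and SD of 4 arrays. Fasted/FLX values lie below all Fed/FLX values for both miR-181 miRNAs and above all Fed/FLX values for both miR-29 miRNAs.

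The exact permutation test over the 8 arrays gave p = 0.0286 (two-sided) for each of the 4 miRNAs, the smallest it can give. Values that do not overlap always give this p, and 13 of the 248 miRNAs (5.24%) had such values. For 4 miRNAs picked from the same arrays it is not separate support. The calls differed in how far they depended on Fed/FLX replicate 1: without it the background-level signal of miR-181c alone was called (adjusted p = 0.00966), and miR-181a-5p, miR-29a and miR-29b each had an adjusted p of 0.0598 with differences of -0.70, 0.50 and 0.62. Each slide held 2 arrays of each group. On slide 1 and slide 2 taken alone the differences were -0.84 and -0.75 for miR-181a-5p, 0.69 and 0.53 for miR-29a and 0.65 and 0.80 for miR-29b. None was called with 2 arrays a group. Since the groups of these miRNAs did not overlap, the same sign on both slides was fixed and is not separate support. In a fit of the 8 FLX arrays alone miR-181c was the only call. Both miR-29 calls were lost with slide column as a block (adjusted p = 0.188 for miR-29b and 0.318 for miR-29a) and with quantile normalization over the 8 FLX arrays alone (0.145 and 0.216), while both miR-181 calls held in these settings. The 75th percentile of the spot intensity averaged 30.8 ± 5.39 on the Fasted/FLX arrays and 22.8 ± 5.95 on the Fed/FLX arrays (SD, n = 4 each; exact permutation test, two-sided p = 0.143). On the total gene signal both miR-29 calls were lost too (adjusted p = 0.0632 for miR-29a and 0.0958 for miR-29b). Without quantile normalization miR-29a was called at 1.25 and miR-29b at 1.23. The arrays were unscaled there and every call was higher in Fasted/FLX livers. A higher call in that setting, for miR-29 or any miRNA below, is therefore not separate support. miR-181a-5p differed by -0.34 there and was not called (adjusted p = 0.236), nor was miR-181c (0.0504).

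Whether fasting changed the same miRNAs without FLX was asked with the 8 arrays of the Fasted and Fed groups, which share no array with the FLX groups. No miRNA (0%) passed the adjusted threshold there in limma, although 29 (11.7%) passed unadjusted. The difference between the 2 fasting effects, (Fasted/FLX minus Fed/FLX) minus (Fasted minus Fed), passed at an adjusted p of 0.05 for 4 of 248 miRNAs (1.61%), and these were the same 4 miRNAs. That overlap is partly built in, since the interaction contains the difference between Fasted/FLX and Fed/FLX itself. Unadjusted, 32 passed (12.9%). Without quantile normalization no interaction (0) passed, with a smallest adjusted p of 0.0818.

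miR-181a-5p had RMA values of 6.56, 6.46, 6.51 and 6.56 in Fasted livers, against 6.52, 6.14, 6.00 and 5.71 in Fed livers. The Fasted values lay close together and overlapped with the Fed values at the top. Fasted minus Fed was 0.43 (adjusted p = 0.273), opposite in sign to the FLX groups, and the interaction was -1.23 (standard error 0.22; limma adjusted p = 0.00606). For miR-181c, at background, Fasted and Fed livers did not pass the test (adjusted p = 0.376) and the interaction did (adjusted p = 0.00274).

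miR-29a had RMA values of 7.78, 7.83, 7.99 and 7.70 in Fasted livers, against 7.96, 8.12, 8.27 and 7.93 in Fed livers. The ranges overlapped, the difference of -0.25 was not called (adjusted p = 0.446), and the interaction was 0.86 (adjusted p = 0.0192). For miR-29b the difference without FLX was -0.31 (adjusted p = 0.394) and the interaction 1.04 (adjusted p = 0.0175). For all 4 miRNAs the signs with and without FLX were opposite, and none of the differences without FLX was called. The arrays with FLX all lay in slide columns 2 and 4 and those without FLX in columns 1 and 3. In the interaction, a fasting difference that changes with FLX and one that changes with slide column therefore cannot be told apart.

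Across all 248 miRNAs the fasting difference with FLX and that without FLX had a Pearson correlation of -0.21 and a Spearman correlation of -0.14, and over the 54 miRNAs detected on all 8 FLX arrays the values were -0.21 and -0.13. These describe miRNAs of the same arrays, which are not independent replicates.

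**Figure D4:**
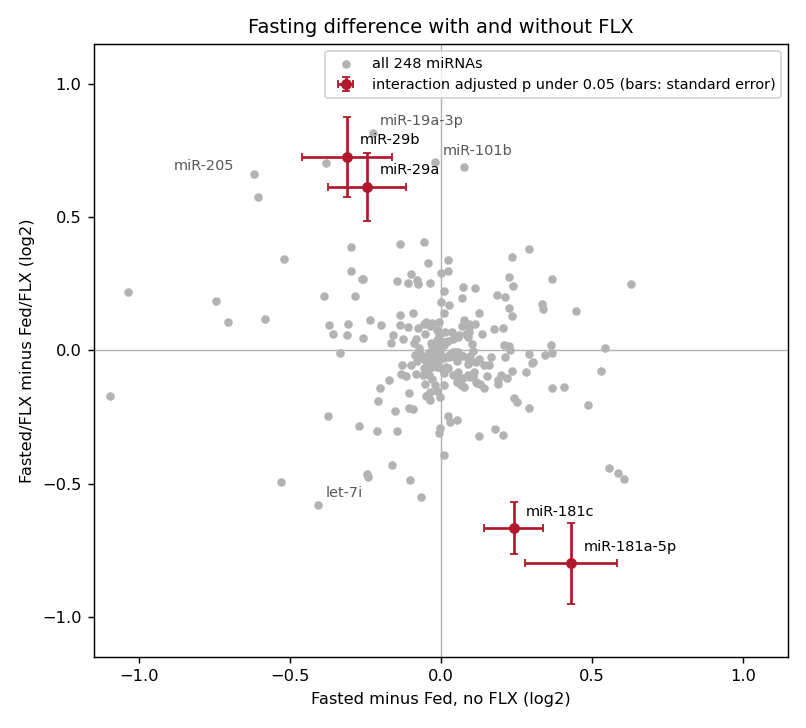
Fasting difference with FLX (vertical axis, Fasted/FLX minus Fed/FLX, log2) against the fasting difference without FLX (horizontal axis, Fasted minus Fed, log2) for 248 miRNAs. The 4 red points are the miRNAs with an interaction adjusted p under 0.05, with bars of 1 standard error; miR-29a and miR-29b lie in the upper left and miR-181a-5p and miR-181c in the lower right.

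The next smallest p-values among detected miRNAs belonged to the miR-101 pair, which is abundant in liver and targets the Polycomb methyltransferase EZH2 in mammals. miR-101a had RMA values of 7.12, 6.93, 6.73 and 7.03 on the Fasted/FLX arrays, against 5.68, 6.62, 6.02 and 6.74 on the Fed/FLX arrays. The groups met at 1 array each, and the difference was 0.69 (standard error 0.18; limma adjusted p = 0.0901). miR-101b had 6.30, 6.00, 5.80 and 6.10 in Fasted/FLX livers, against 4.67, 5.65, 5.61 and 5.45 in Fed/FLX livers. The values of miR-101b did not overlap, yet its difference of 0.71 was not called (adjusted p = 0.116). Both were called when only the 74 miRNAs detected on all arrays of an FLX group were tested (adjusted p = 0.0324 for miR-101a and 0.0393 for miR-101b). Both were also called without quantile normalization, at 1.21 and 1.13. miR-101a was also called without Fed/FLX replicate 2 (adjusted p = 0.0328) or replicate 4 (0.0171). With 1 array left out at a time, the miR-101a difference ranged from 0.49 to 0.85 and its adjusted p from 0.0171 to 0.28. miR-101b entered these 74 only through the Fasted/FLX group, where it was higher (detected on 4 arrays, against 3 Fed/FLX arrays). Its adjusted p among the 74 is therefore not separate support. Without FLX the Fasted minus Fed differences were 0.08 for miR-101a and -0.02 for miR-101b, and the interactions did not pass (adjusted p = 0.31 and 0.278).

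The largest difference in either direction among all 248 miRNAs was that of miR-19a-3p, a member of the growth-promoting miR-17 to miR-92 cluster. It had RMA values of 6.66, 5.96, 6.37 and 5.80 on the Fasted/FLX arrays, against 4.92, 5.67, 5.84 and 5.09 on the Fed/FLX arrays. Only the lowest Fasted/FLX and the highest Fed/FLX array crossed, and the difference of 0.82 (standard error 0.25) had an adjusted p of 0.144, which was 0.0461 among the 74 detected miRNAs, and it was called at 1.22 without quantile normalization. Its cluster partner miR-19b-3p differed by 0.29 (adjusted p = 0.373), and by 0.90 with a call without quantile normalization (adjusted p = 0.02001).

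On the lower side, let-7i, of the let-7 family that restrains growth genes, had RMA values of 5.22, 4.65, 4.66 and 4.85 on the Fasted/FLX arrays, against 5.71, 5.15, 5.11 and 5.74 on the Fed/FLX arrays. The groups overlapped through Fasted/FLX replicate 1, and the difference was -0.58 (standard error 0.17; limma adjusted p = 0.119). It was called among the 74 detected miRNAs (adjusted p = 0.042), without Fasted/FLX replicate 1 (0.0455) and without Fed/FLX replicate 3 (0.0459). With 1 array left out at a time, its difference lay between -0.70 and -0.48, with an adjusted p of up to 0.404. let-7i differed by -0.41 without FLX (adjusted p = 0.376), in the same direction. miR-2190 had 7.97, 8.24, 8.07 and 8.17 in Fasted/FLX livers, against 8.88, 8.31, 8.25 and 8.74 in Fed/FLX livers. All its Fasted/FLX values were lower, with a difference of -0.43 (adjusted p = 0.144) that turned to 0.13 without quantile normalization. It was called without Fed/FLX replicate 3 (adjusted p = 0.0459). With 1 array left out at a time, the miR-2190 difference lay between -0.53 and -0.32, with an adjusted p of up to 0.42.

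A related pair outside the naming rule, singled out here after the values were seen, also separated the groups. Both are among the 13 of 248 miRNAs (5.24%) whose values did not overlap, 7 of them lower (2.82%). miR-222a differed by -0.46 (adjusted p = 0.183), and miR-221, encoded beside it in many vertebrates, differed by -0.30 (adjusted p = 0.234). Neither was called, and neither was detected on every array of a group. miR-222a was detected on 3 Fasted/FLX and 3 Fed/FLX arrays, and miR-221 on 2 and 3. The related miR-222b was detected on no FLX array, and its values overlapped between the groups.

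Of the remaining miRNAs with the smallest p-values, none was called with quantile normalization over the 16 arrays. Higher values in Fasted/FLX livers were found for the endothelial miR-126b-3p, with a difference of 0.33 (adjusted p = 0.234), and for miR-130a, with a difference of 0.17 (adjusted p = 0.371), and neither overlapped between the groups. Lower values were found for miR-125b with -0.39 (adjusted p = 0.246), for miR-210-3p, which is induced by hypoxia, with -0.48, for miR-25 with -0.32, for miR-223, a miRNA of myeloid blood cells, with -0.28, and for miR-92a with -0.22. The adjusted p of the last 4 was 0.371 each, and their groups overlapped. miR-223 is 1 of 8 white blood cell miRNAs listed, of which 4 had positive and 4 negative differences. Without quantile normalization the differences of miR-125b, miR-25, miR-223 and miR-92a turned to 0.18, 0.19, 0.04 and 0.42. The median over all miRNAs was 0.20 there, but 142 of the 248 were detected on no FLX array. The 5 brightest miRNAs differed by 0.44 (miR-122), -0.25 (miR-739), 0.70 (let-7a), 0.41 (miR-22a) and -0.01 (miR-451). In that setting miR-92a, miR-126b-3p (0.77, adjusted p = 0.0217) and miR-130a (0.53, adjusted p = 0.0273) were called as higher. Without Fed/FLX replicate 3 miR-210-3p was called (-0.70, adjusted p = 0.0459). With 1 array left out at a time, its difference lay between -0.70 and -0.33, with an adjusted p of up to 0.774.

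By family, the calls were confined to miR-29 and miR-181 among the families listed. Both of the 2 miR-29 miRNAs on the array were called higher, and they were the only higher calls of all 248 (0.806%). Likewise 2 of the 3 miR-181 miRNAs were called lower, the only lower calls of all 248 (0.806%). Of these 3 only 1, miR-181a-5p, was detected on an FLX array, and the signal of miR-181c lay at background. The lists were chosen with earlier results of these data known. Over all 248 miRNAs 111 differences were positive. The miR-26 and miR-101 list had 4 of 4 positive differences, none called, with a median of 0.41. In the list of liver-enriched miRNAs 9 of 11 differences were positive, none called, and the median was 0.25, against -0.01 for all miRNAs. Both lists count miR-101a and miR-101b. The miR-122 difference came to 0.001 with Fed/FLX replicate 1 left out. In the liver-enriched list the bile acid and hepatocyte-differentiation related miR-192 and miR-194a, which RefSeq places next to each other, differed by 0.25 and 0.35 (adjusted p = 0.503 and 0.409). The groups overlapped for both. Fed/FLX replicate 1 had miR-192 at 8.82 (other Fed/FLX arrays 9.29 to 9.72) and miR-148 at 4.39 (others 5.26 to 5.56). It was the lowest Fed/FLX array for every miRNA of this list except miR-21, miR-22a and miR-194b. How far the list's median rests on this array was not tested. miR-21 differed by -0.49, the lowest of the list (adjusted p = 0.503). miR-21 had RMA values of 7.49, 7.69, 7.53 and 7.95 in Fasted/FLX livers, against 8.36, 8.37, 8.45 and 7.45 in Fed/FLX livers. All but Fed/FLX replicate 4 followed the group difference.

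The list of miRNAs tied to lipid and glucose metabolism, mostly from work in mammals, had 2 of 17 called higher. These 2 were the miR-29a and miR-29b already counted in their family, the only higher calls of all miRNAs (0.806%). The median was 0.01. In it miR-103, miR-107a and miR-107b, which act on insulin sensitivity in mice, had differences of -0.21, -0.26 and -0.14, of which miR-103 turned to 0.08 without quantile normalization. None of the miR-103 and miR-107 list was called. The 10 let-7 miRNAs had no call and a median of -0.01, and apart from let-7i they lay between -0.18 and 0.10. The 20 miRNAs of the miR-17 to miR-92 cluster and its copies had no call and 11 positive differences (median 0.12), against 111 of 248 over all miRNAs.

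No member was called in any other family list. The medians were 0.02 for miR-130, miR-301 and miR-454, -0.09 for miR-15, miR-16 and miR-457, -0.03 for miR-30, 0.01 for miR-23, miR-24 and miR-27, and -0.08 for miR-99, miR-100 and miR-125. In the fish-specific pair miR-462 and miR-731, known from antiviral responses, the differences were -0.55 (adjusted p = 0.474) and -0.02. The list of both arms of miR-140 and miR-210 had a median of 0.02, with -0.01 for miR-140-3p and 0.05 for miR-140-5p.

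**Figure D5:**
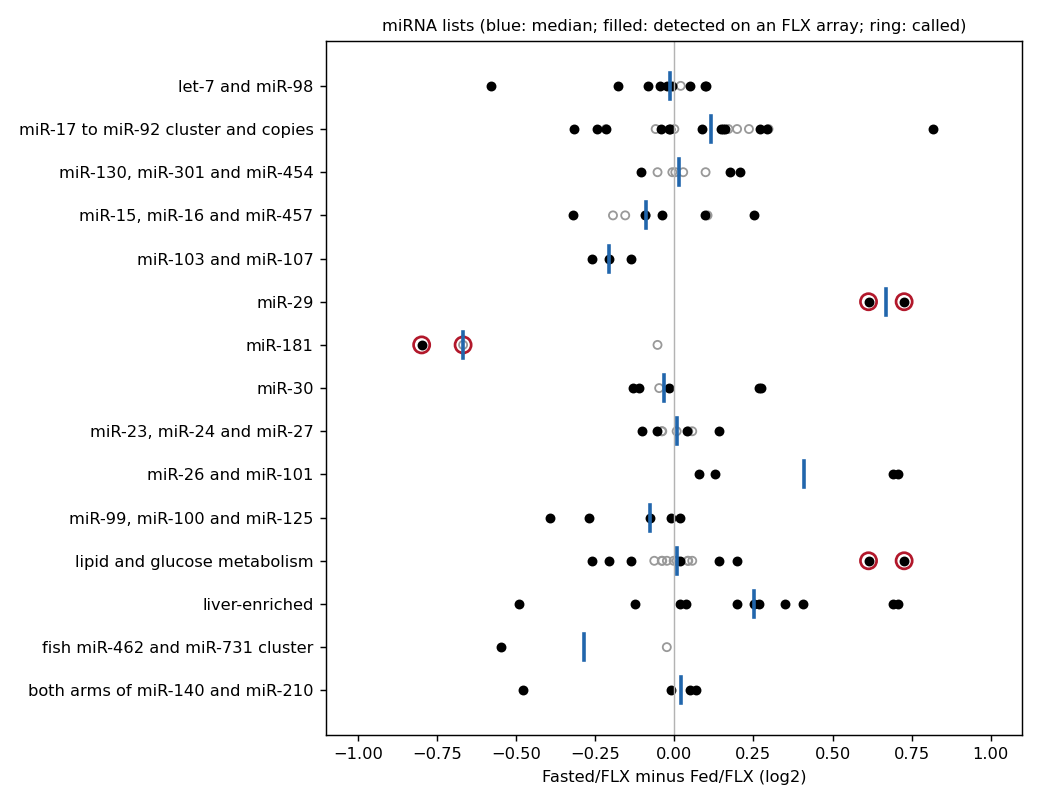
Differences between Fasted/FLX and Fed/FLX (horizontal axis, log2) of the miRNAs of each list (1 row per list, 1 point per miRNA), with the list's median as a blue line, filled points for miRNAs detected on at least 1 of the 8 FLX arrays and rings for adjusted p under 0.05. Both miR-29 points and 2 of 3 miR-181 points are ringed, and 1 of those 2, miR-181c, was detected on no FLX array. The miR-29 points appear again under lipid and glucose metabolism.

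The 5 brightest miRNAs of the FLX arrays were not called. They were miR-122, with a difference of 0.20 (adjusted p = 0.546), miR-739 with -0.16 (0.573), let-7a with 0.10 (0.685, and called at 0.70 without quantile normalization), miR-22a with -0.13 (0.524) and the red blood cell miRNA miR-451 with -0.46 (0.503). miR-451 had RMA values of 9.59, 8.97, 9.10 and 9.40 in Fasted/FLX livers, against 10.36, 9.48, 9.85 and 9.21 in Fed/FLX livers. The groups overlapped, with the highest value again in Fed/FLX replicate 1. The other red blood cell miRNA listed, miR-144, differed by 0.01 (adjusted p = 0.988).

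miR-205, an epithelial miRNA, varied widely within both groups. It had RMA values of 7.95, 6.86, 7.20 and 7.02 on the Fasted/FLX arrays, against 5.63, 7.21, 7.36 and 6.17 on the Fed/FLX arrays. The Fed/FLX arrays with low values were replicates 1 and 4, which also had the fewest detected miRNAs, and the difference of 0.66 (standard error 0.34) was not called (adjusted p = 0.46), though it was at 1.18 without quantile normalization (adjusted p = 0.0485). Without FLX it was -0.62 (adjusted p = 0.488).

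Several dim miRNAs that the naming rule also covered were not called with quantile normalization, and their values depended on the scaling. let-7d, miR-193a and miR-457b were detected on no FLX array and differed by 0.02, 0.34 and 0.10. miR-301a and miR-210-5p were detected on 1 Fasted/FLX array and no Fed/FLX array and differed by 0.21 and 0.07, and for miR-140-5p these numbers were 2 and 0, with a difference of 0.05. On the total gene signal the differences were 1.03 for let-7d, 3.01 for miR-193a, 2.09 for miR-457b, 2.89 for miR-301a and 2.62 for miR-140-5p, none called, and without quantile normalization miR-193a was called at 0.59 (adjusted p = 0.0485). miR-22b differed by 0.02 (95% interval -0.21 to 0.24) although it was detected on 4 Fasted/FLX arrays and 1 Fed/FLX array.

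Markers of other cell types were checked, since liver samples hold blood, vessels and attached tissue. Their sums on the linear scale of the RMA values overlapped between the groups in each list, and no member was called. The 2 red blood cell miRNAs summed to 535 to 855 in Fasted/FLX livers and 614 to 1418 in Fed/FLX livers. Of the 2, miR-451 differed by -0.46 and miR-144 by 0.01. The 8 white blood cell miRNAs summed to 201 to 226 in Fasted/FLX livers and 167 to 273 in Fed/FLX livers, with 4 positive and 4 negative differences. Both the lowest and the highest sum were higher in Fasted/FLX livers for the endothelial list and for the list of epithelial ducts and skin. The same held for the hepatocyte marker miR-122 and for miR-430, which was detected on no FLX array. For miR-122 the values were 5121 to 5152 in Fasted/FLX livers and 2968 to 5149 in Fed/FLX livers. The lowest was Fed/FLX replicate 1, and quantile normalization holds the top values nearly equal, so this is no measure of hepatocyte content. miR-205, which varied widely within both groups, had the largest difference of the ducts and skin list, 0.66.

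The 3 endothelial miRNAs summed to 244 to 350 in Fasted/FLX livers and 220 to 267 in Fed/FLX livers, and all 3 had positive differences. The 10 miRNAs of epithelial ducts and skin summed to 275 to 438 in Fasted/FLX livers and 200.3 to 329 in Fed/FLX livers, and the 5 of mesenchyme and smooth muscle to 468 to 544 and 476 to 652. Pancreas miRNAs, which a zebrafish liver sample can hold from attached tissue, summed to 45.9 to 119 in Fasted/FLX livers and 43.0 to 141 in Fed/FLX livers. miR-375, which defines islets, was detected on no FLX array.

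Of the 8 muscle miRNAs only miR-499 was detected, on 1 array, and the list summed to 38.9 to 52.4 in Fasted/FLX livers and 39.3 to 50.9 in Fed/FLX livers. None of the 6 brain miRNAs or the 5 miR-430 miRNAs of oocytes and early embryos was detected on any FLX array, with sums of 26.5 to 30.2 in Fasted/FLX livers and 26.8 to 32.5 in Fed/FLX livers for brain and 18.8 to 23.0 and 17.7 to 20.4 for miR-430. The hepatocyte marker miR-122 was detected on all 8 arrays. The part of other cell types in the miR-181 and miR-29 differences was not tested.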

How the data were processed

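Liver miRNA of 16 samples, 4 per group, was measured on 2 slides of 8 arrays. The authors deposited Agilent Feature Extraction 11.0.1.1 output (version per the submitters' processing notes), with 1 background-subtracted intensity per spot and no scaling across arrays. A second deposited file, of log2 values for 166 miRNAs, was used only as an alternative because its headings and the scanner files assign the scans to different samples. Which assignment is right could not be settled.

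For RMA values, limma 3.58.1 and R 4.3.3 were used: normal-exponential background model on all spots, removal of control and outlier spots, quantile normalization over 16 arrays, log2, and median polish with at most 20 iterations. All 248 miRNAs were tested in 1 limma fit with a mean per group and 12 residual degrees of freedom, called at a Benjamini-Hochberg adjusted p under 0.05, with and without a 2-fold minimum. The number of arrays limits the precision. The fit was tested on simulated data with changes of 2-fold or more in miRNAs detected on all 16 arrays. That test does not cover smaller differences, miRNAs at background or an array that stands apart.

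The members and the miRNA lists were chosen with earlier results of these data known. Named miRNAs were those called, up to 8 per direction with the smallest p among those detected on all 4 arrays of a group, those the study named, list members detected on an FLX array, and the 5 brightest. Figures were drawn with matplotlib 3.10.9. Gene neighbours came from RefSeq names only. Alternatives covered scaling, background, summary, filters, slides, single arrays and the study's own test.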

Additional observations from a re-analysis of the deposited data

Results flagged for a closer look

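The fasting difference with FLX minus that without FLX was -0.91 for miR-181c (at background on all 8 FLX arrays, so not a measured size), -1.23 for miR-181a-5p, 1.04 for miR-29b and 0.86 for miR-29a, each past an adjusted p of 0.05 in the test of that difference.

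A total of 68 groups of 4 arrays were checked for 1 array that stands apart by Dixon's criterion. Of these 8 were marked, where chance marks about 1 in 20 of independent groups. The 68 share arrays and normalization, so they are not independent. Fed/FLX replicate 1 accounted for 3 of the values marked, with miR-122 at 11.54 (others 12.32 to 12.33), miR-739 at 12.32 (others 11.67 to 11.68) and let-7a at 9.87 (others 10.32 to 10.38). The marks of miR-122 and miR-739 are tied, since these miRNAs changed places at the top and quantile normalization nearly fixes the top values. Fasted/FLX replicate 1 stood above the other Fasted/FLX arrays for miR-126b-3p at 6.43 (others 5.97 to 6.04) and for miR-301a at 3.73 (others 3.38 to 3.42). It also had 116 miRNAs with the detection mark of the scanner software, against 108 to 109 on the other Fasted/FLX arrays. Fasted/FLX replicate 3 had let-7a at 10.41 (others 10.29 to 10.31), and Fed/FLX replicate 3 had miR-126b-3p at 5.58 (others 5.84 to 5.89).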

How the results depend on the processing

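The count of 4 called miRNAs ranged between 1 and 7 when 1 array was left out, with 1 without Fed/FLX replicate 1, 2 without Fasted/FLX replicate 2 and 7 without Fed/FLX replicate 3 or replicate 4, and the interaction count between 3 and 5. Without Fasted/FLX replicate 1 miR-29a was lost (adjusted p = 0.0681), and without Fasted/FLX replicate 2 both miR-29 miRNAs were (0.0553 each). The count was 2 with quantile normalization over the 8 FLX arrays (both miR-29 miRNAs lost), 1 with only the 8 FLX arrays in the fit, 1 with the total gene signal, 7 among 74 miRNAs that all 4 arrays of an FLX group detected (gaining miR-101a, miR-101b, let-7i and miR-19a-3p), 0 on slide 1 alone and 0 on slide 2 alone (fewer arrays), 11 with the methods' test without a fold minimum (6 after Benjamini-Hochberg adjustment; it included all 4 calls) and 29 without adjustment. Of the 74 miRNAs, 19 entered through the Fasted/FLX arrays alone, among them miR-29b and miR-101b, which were higher there. Without quantile normalization 34 were called, all of them higher, 8 of them at least 2-fold, the median over all miRNAs moved to 0.20, no interaction (0) passed, miR-92a turned to 0.42, and miR-181a-5p and miR-181c lost their calls at -0.34 and -0.47 (adjusted p = 0.236 and 0.0504). The count at 2-fold was 1 under both 75th percentile scalings and no background correction, where it was miR-181c (at background; -1.51, -1.45 and -1.47), and 1 with the total gene signal, where it was miR-181a-5p (-1.02). Of the alternatives added after seeing the data, the count was 2 without both Fed/FLX replicates 1 and 4 (miR-181c and miR-735), 2 with slide column as a block (both miR-29 miRNAs lost), and 0 of 166 with the authors' table by its headings, where 134 interactions passed and miR-29a and miR-29b turned to -0.23 and -0.38. By the assignment in the scanner files, the columns of that table hold other groups' scans. In the other alternatives run, the 4 miRNAs kept their direction. With arrays left out or a slide taken alone this was fixed, since their groups did not overlap. Fits that changed only the model used the same RMA values and returned the same differences. Neither is separate support. The cause of these changes was not tested unless stated.

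Replicate numbers gave no pairing, since 1 of 4 same-numbered pairs had a correlation over 0.1, and with the replicate number as a block 6 miRNAs were called, with let-7i and miR-101a gained (adjusted p = 0.0494 each). Depth, as signal over background, leaves 142 of 248 miRNAs without a level on these arrays.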
